A study of Homo sapiens with 10 samples.

Results

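The genes described here are 37 members of the autophagy and lysosome system, taken by name from the array's annotation and represented by the brightest probe of each, out of 17752 genes tested. They comprise 22 genes of the autophagy machinery, 9 lysosomal hydrolases, 4 genes of the lysosomal membrane and proton pump, and the pair TFEB and VPS18. All 37 passed the filter on dim probes, and 35 were above background on all 10 arrays. They were measured in NCI-H441, an established human lung adenocarcinoma cell line, on Illumina HumanWG-6 bead arrays. The treated group (5 arrays) was given the compound CLEFMA at 1 µM for 12 h and the control group (5 arrays) the vehicle, DMSO; both had 0.1% DMSO. The title of the series ties this small molecule to oxidative stress and necrotic cell death. The labels differ on the cultures behind the arrays, with 5 replicates per group in the series text, 4 wells in the treatment protocol and 3 biological replicates in the extraction protocol. No label makes each array a culture of its own, and the p-values below therefore reflect array-to-array spread that could be technical.

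Autophagy encloses cytoplasm in a double membrane, the autophagosome, and delivers it to lysosomes. A kinase complex starts the process, a lipid kinase complex marks the site, and conjugation enzymes attach proteins of the ATG8 family to the growing membrane, where cargo receptors dock. Lysosomal hydrolases then degrade the contents at acidic pH. TFEB is a transcription factor that can raise many of these genes together.

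Arrays were broadly alike, with pairwise correlations of 0.973 to 0.993 and 49.1% to 53.7% of probes above background. Control 3 stood apart: its correlations averaged 0.978, and those of each remaining array 0.986 to 0.990. Where leaving it out moved the difference of any of the 37 genes by over 1.5 times, that value is given as well. Any other difference or median includes control 3 unless stated otherwise. Of 14 lung epithelial markers, 12 were above background on every array, among them EPCAM, NKX2-1 and the keratins KRT7, KRT8, KRT18 and KRT19; SFTPC was above it on none. None of the 14 passed the test. The summed level of a marker set is the log2 of its added linear values, so the brightest genes weigh most. For the 14 it was 13.76 to 14.01 on treated arrays, against 14.02 to 14.10 on control arrays, so these ranges did not overlap. Summed levels of 10 fibroblast markers were 8.0 to 8.41 on treated and 7.94 to 8.72 on control arrays, with 6 of the 10 above background on all arrays and COL3A1 on none. The brightest of them were LUM (mean 7.07 in treated and 7.28 in control cells), COL1A1 (6.14 and 6.26) and VIM (5.52 and 5.76). Those of 10 leukocyte markers were 8.42 to 8.86 on treated and 8.48 to 9.06 on control arrays, with 5 of the 10 above background on all arrays and ITGAM on none. This level was set mainly by CD68, with a mean of 8.4 in both groups. The next brightest was LYZ, at 4.69 in treated and 4.27 in control cells. The part of these marker levels in the results below was not tested.

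In CLEFMA-treated cells 1 lysosomal hydrolase gene, GLA, rose 2.88-fold, and none of the autophagy machinery genes passed the test. A second hydrolase gene, CTSL, showed no overlap between the groups, with all treated values the higher, and lay just short of the threshold. In RNA from whole cultures, fewer cells of a kind and less RNA per cell cannot be told apart. Of the 37 genes, 1 rose, 0 fell and 36 did not pass in limma with Benjamini-Hochberg adjustment over all genes at a threshold of 0.05. Over all genes tested 0.265% rose and 0.0338% fell. At an unadjusted p under 0.05, 4 of the 37 were higher and 1 was lower, where 4.48% of all genes were higher and 4.48% lower. The groups did not overlap for 3 of the 37 (GLA, CTSL and GABARAPL1), against 2.5% of all genes tested. The median log2 difference, treated minus control, was 0.003 over the 37 genes and 0.007 over all genes. It lay within 0.25 of 0 for 32 of the 37 (86.5%) and for 83.2% of all genes. A filter of above background on 5 arrays kept 13162 genes, so the 17752 hold a larger share of dim genes than the 37. The shares over all genes were not computed on that brighter set.

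**Figure D1:**
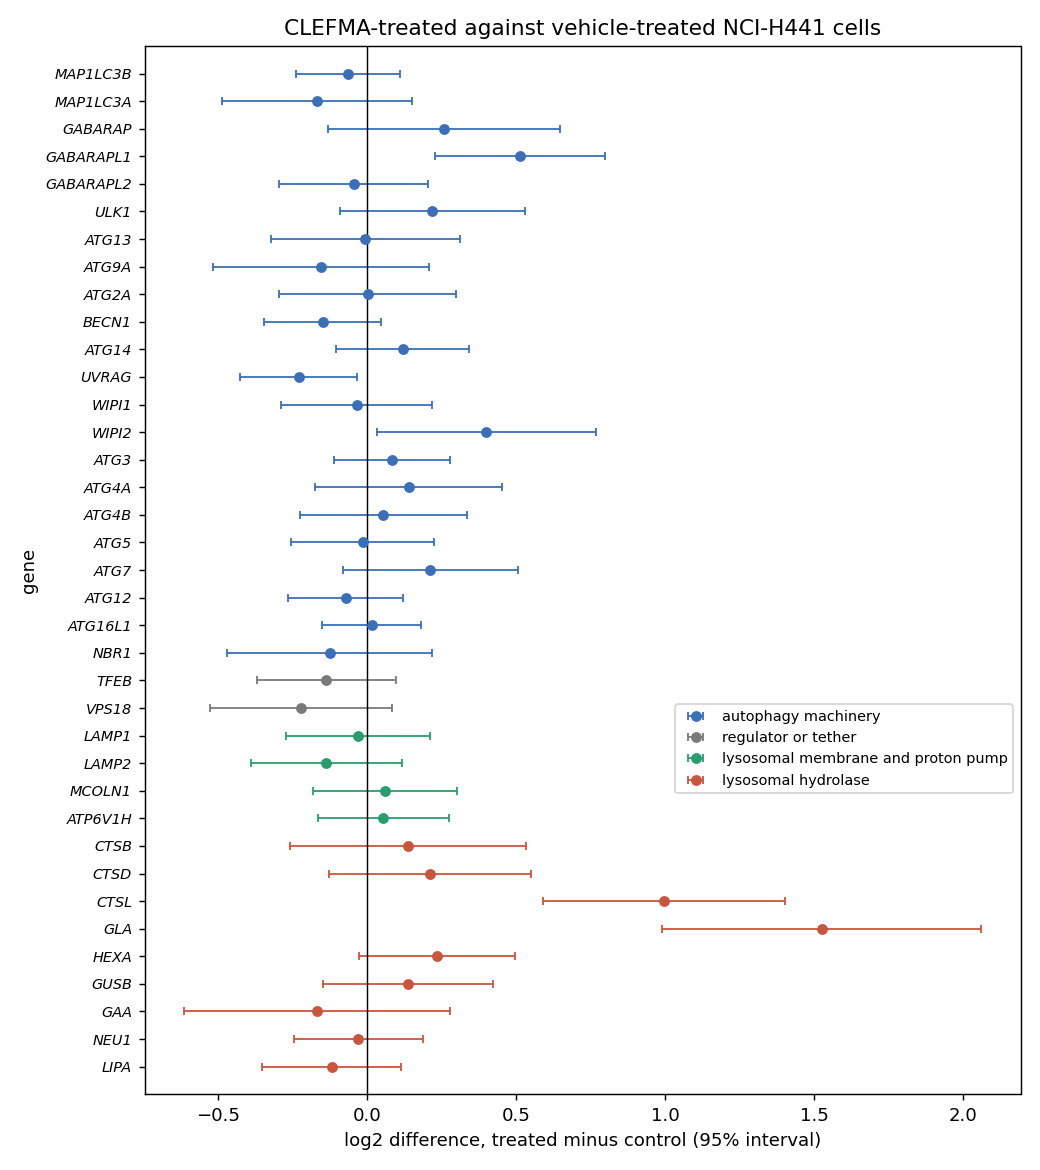
Log2 difference between treated and control cells (horizontal axis) for each of the 37 genes (vertical axis), as points with 95% intervals from limma (n = 5 arrays per group), coloured by class. GLA at 1.53 and CTSL at 1.00 lie apart from the other 35 genes, which run from -0.23 to 0.51.

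The 22 genes of the autophagy machinery divided evenly around 0. Of these genes 0 rose, 0 fell and 22 did not pass in limma; at an unadjusted p under 0.05 there were 2 higher (GABARAPL1 and WIPI2) and 1 lower (UVRAG). Their median log2 difference was -0.001 (0.006 without control 3), with 11 positive and 11 negative, and they ran from -0.23 to 0.51. The 95% interval of the difference lay between -1 and 1 for all 22, so each interval left out a 2-fold change. These are differences on the log2 scale after an offset, on which the change of a dim gene comes out too small.

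ATG8 proteins are small ubiquitin-like proteins that are joined to lipid in the autophagosome membrane; they fall into the LC3 and GABARAP subfamilies. GABARAPL1 had log2 values of 6.71, 6.66, 6.71, 6.67 and 7.30 on treated arrays 1 to 5, against 6.45, 6.37, 6.31, 6.25 and 6.12 on control arrays 1 to 5. Every treated array was above every control array, and treated 5 stood well above the other treated arrays. The log2 difference was 0.51 ± 0.13 (SE, n = 5 per group), a fitted ratio of 1.43, short of the threshold (limma adjusted p = 0.225), and leaving out treated 5 gave 0.39. MAP1LC3B encodes the LC3 protein most used as an autophagosome marker. Its log2 values were 7.63, 7.54, 7.69, 7.61 and 7.68 on treated arrays and 7.70, 7.69, 7.71, 7.82 and 7.56 on control arrays. The groups overlapped, and the difference was -0.06, with a 95% interval of -0.24 to 0.11. The relatives differed by 0.26 (GABARAP), -0.04 (GABARAPL2) and -0.17 (MAP1LC3A), with intervals that all included 0. Without control 3 the GABARAP value was 0.11 and the MAP1LC3A value -0.09. A second GABARAPL2 probe differed by -0.20, and a dim MAP1LC3A probe, above background on 0 treated and 1 control array, by -0.33. Near-identical copies exist for GABARAPL1 (GABARAPL3) and MAP1LC3B (MAP1LC3B2), so which copy their probes bound is uncertain.

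At the start of the pathway stand the kinase ULK1 and its partner ATG13, the lipid scramblase ATG9A and the lipid transfer protein ATG2A. None of these 4 passed, and their differences ran from -0.15 (ATG9A) to 0.22 (ULK1). Without control 3 they were 0.01 for ATG9A, 0.09 for ULK1, 0.09 for ATG13 and -0.10 for ATG2A. A second ULK1 probe above background on all arrays differed by 0.17. ATG2A had the highest unadjusted p of the machinery. Its log2 values of 5.86, 5.71, 5.64, 5.87 and 5.64 on treated arrays overlapped those of 5.52, 5.93, 5.34, 6.07 and 5.85 on control arrays. Its mean log2 value was 5.75 ± 0.11 in treated cells and 5.74 ± 0.30 in control cells (SD, n = 5 each), a difference of 0.003 (95% interval -0.29 to 0.30). ATG13 was above background on 5 treated and 3 control arrays.

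BECN1, ATG14 and UVRAG belong to the class III phosphatidylinositol 3-kinase complexes, ATG14 to the one that forms autophagosomes and UVRAG to one that acts later on endosomes, and WIPI1 and WIPI2 bind the lipid that the kinase makes. UVRAG had log2 values of 5.07, 5.08, 4.89, 4.96 and 5.12 on treated arrays and 5.10, 5.32, 5.35, 5.13 and 5.36 on control arrays. The treated values were mostly the lower, with an overlap between treated 5 and control 1. Its difference of -0.23 ± 0.09 (SE) did not pass (limma adjusted p = 0.490), and a second, dimmer UVRAG probe differed by -0.10. WIPI2 had log2 values of 4.92, 4.63, 5.04, 4.83 and 4.96 on treated arrays and 4.74, 4.50, 3.87, 4.40 and 4.88 on control arrays. The groups overlapped, and control 3 was the lowest of the 10. The WIPI2 difference was 0.40 ± 0.17 (SE; limma adjusted p = 0.518) and was 0.25 without control 3. A second WIPI2 probe, above background on no array, differed by 0.03, and the mean over both probes by 0.22. BECN1, ATG14 and WIPI1 differed by -0.15, 0.12 and -0.03, and without control 3 ATG14 differed by 0.18 and WIPI1 by -0.01.

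None of the 7 genes of ATG8 and ATG12 conjugation passed. ATG7 activates ATG12 and the ATG8 proteins, ATG3 passes the ATG8 proteins on to lipid, ATG4A and ATG4B trim them, and ATG12 with ATG5 and ATG16L1 forms the complex that sets the site. Differences of these 7 genes ran from -0.07 (ATG12) to 0.21 (ATG7), with a median of 0.06. Without control 3, the lowest of the 10 arrays for ATG7, ATG4A and ATG4B, those 3 genes differed by 0.09, 0.01 and -0.05, and ATG5 differed by 0.002 in place of -0.01. For ATG16L1, the steadiest of the 37 among control arrays, the mean log2 value was 6.69 ± 0.05 in treated cells and 6.67 ± 0.07 in control cells (SD, n = 5 each). A second ATG16L1 probe differed by -0.17 and a second ATG12 probe by 0.04. For ATG3 the brightest probe differed by 0.085 and a second by -0.07. The cargo receptor NBR1, which links ubiquitinated cargo to ATG8 proteins, differed by -0.12 (95% interval -0.47 to 0.22), and by -0.03 without control 3. Other NBR1 probes differed by -0.32 (above background on 2 treated and 4 control arrays) and by 0.02 (on none).

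SQSTM1, the better known cargo receptor (p62) and outside the 37, was the 1 gene that passed among the other genes of the pathway. Its log2 values were 10.25, 10.53, 10.24, 10.66 and 10.85 on treated arrays and 9.66, 9.48, 8.58, 9.47 and 9.53 on control arrays. The groups did not overlap, and control 3 was the lowest array. The log2 difference was 1.16 ± 0.20 (SE, n = 5 per group; limma adjusted p = 0.0292) and was 0.98 without control 3 (limma adjusted p = 0.00816). SQSTM1 passed in 12 of 23 alternatives, whose limma adjusted p ran from 0.00584 to 0.138, and the call was lost without treated 2, 3, 4 or 5 and without control 2, 4 or 5, at 0.0501 to 0.119. Of 135 further autophagy and lysosome genes tested, out of 147 listed, 1 rose, 0 fell and 134 did not pass, with a median difference of 0.03. At an unadjusted p under 0.05, 5 were higher and 2 lower. The same cut took in 4.48% of all genes tested in each direction, so neither count of these pathway genes exceeded the general rate. Besides SQSTM1 and TFE3, the higher ones were ULK2 (0.39), a relative of ULK1, CD63 (0.46), a membrane protein of late endosomes, and ATP6V1F, and the lower ones were FNIP2 (-0.42), a partner of folliculin, and CTSZ; all but SQSTM1 and TFE3 were picked after their values were seen. ULK2 was near background, above it on 5 treated and 2 control arrays. For CD63, control 5 at 7.025 lay below the 7.70 to 8.28 of the other controls. Without control 3 the count of these pathway genes that passed was also 1, and without treated 5 it was 0. By role, the number tested was 10 for cargo receptors, 20 for other machinery, 13 for fusion and tethering, 22 for regulators, 16 for the proton pump, 34 for hydrolases and their activators, and 20 for membrane and sorting proteins.

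TFEB was near background, above it on 1 treated and 3 control arrays. Its log2 values were 2.34, 2.13, 2.11, 2.11 and 2.10 on treated arrays and 2.10, 2.07, 2.51, 2.44 and 2.35 on control arrays. The groups overlapped and the difference was -0.14 (limma adjusted p = 0.703), or -0.08 without control 3; at this signal a moderate change of TFEB would not be seen. TFE3, a relative of TFEB that binds the same DNA motif, had log2 values of 4.75, 4.52, 4.70, 4.62 and 4.94 on treated arrays and 4.47, 4.41, 4.31, 4.30 and 4.48 on control arrays. Its groups did not overlap, but the difference of 0.31 did not pass (limma adjusted p = 0.361). VPS18, a subunit of the complex that tethers autophagosomes to lysosomes, differed by -0.22 (95% interval -0.52 to 0.08).

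**Figure D2:**
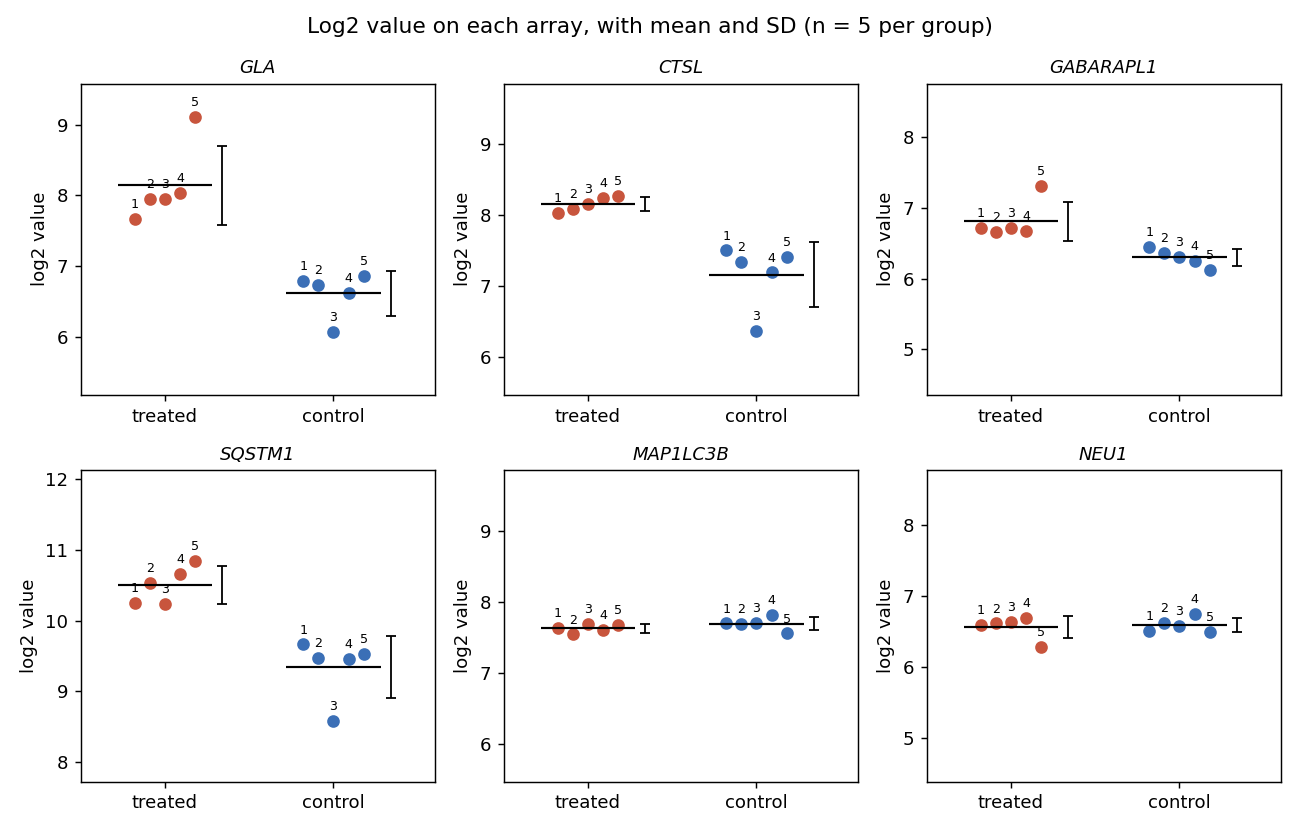
Log2 value (vertical axis) of 6 genes on the treated (red, left) and control (blue, right) arrays, numbered by replicate. The mean is a line and the SD a bar (n = 5 each). All panels have the same height in log2 units, but each is centred on its own gene's mean, so levels differ between panels. GLA, CTSL, GABARAPL1 and SQSTM1 do not overlap between groups, whereas MAP1LC3B and NEU1 do. Control 3 is lowest for GLA, CTSL and SQSTM1, and treated 5 is highest for GLA, CTSL, GABARAPL1 and SQSTM1.

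The lysosomal membrane and its proton pump were represented by LAMP1 and LAMP2, the main membrane glycoproteins, MCOLN1, a calcium channel, and ATP6V1H, a subunit of the proton pump. Of the 4 genes 0 rose, 0 fell and 4 did not pass in limma, with 0 at an unadjusted p under 0.05 in either direction. The median difference was 0.01, within a range of -0.13 to 0.06, and was -0.004 without control 3. LAMP1 had log2 values of 9.44, 9.54, 9.42, 9.56 and 9.38 on treated arrays and 9.61, 9.51, 9.11, 9.59 and 9.67 on control arrays. The treated values lay inside the range of the controls, and the 95% interval of the difference was -0.27 to 0.21. Without control 3, the LAMP1 difference was -0.13 in place of -0.03. LAMP2, whose splice forms differ at the membrane end of the protein, was covered by 6 probes. The brightest differed by -0.13 (-0.06 without control 3) and the other 5 by -0.32 to 0.02. Of the 16 further proton pump genes tested, none passed, and 1 was higher at an unadjusted p under 0.05 (ATP6V1F, 0.26). Their median difference was 0.10 with control 3 included, and was not computed without that array.

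Of the 9 hydrolases 1 rose, 0 fell and 8 did not pass; at an unadjusted p under 0.05 there were 2 higher and 0 lower. The median difference was 0.14, set beside -0.001 for the 22 machinery genes and 0.007 for all genes. It was 0.04 without control 3, which lay lowest among controls in the median of these 9 genes. Without GLA and CTSL, left out after their values were seen, the other 7 hydrolases had a median of 0.14 with control 3 included, within a range of -0.17 to 0.23. With control 3 left out, these 7 differed by 0.343 (CTSD), 0.165 (HEXA), 0.035 (GAA), 0.034 (GUSB), 0.012 (CTSB), -0.03 (NEU1) and -0.04 (LIPA). Whether the hydrolases differed from the machinery was not tested.

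GLA encodes alpha-galactosidase A, the lysosomal enzyme that removes terminal galactose from glycolipids and is deficient in Fabry disease. Its log2 values were 7.67, 7.95, 7.95, 8.03 and 9.11 on treated arrays and 6.80, 6.73, 6.08, 6.62 and 6.86 on control arrays. Every treated array was above every control array; treated 5 was far above the other treated arrays and control 3 below the other controls. The log2 difference was 1.53 ± 0.245 (SE, n = 5 per group; 95% interval 0.99 to 2.06; limma adjusted p = 0.0196). Without treated 5 it was 1.28 (limma adjusted p = 0.00469), without control 3 it was 1.39 (0.0395), and without both 1.15 (6.88e-04). GLA has 1 probe in the annotation. It passed in 15 of 23 alternatives, whose limma adjusted p ran from 6.88e-04 to 0.106, and the call was lost without control 1, 2 or 4 and without treated 3 or 4, at 0.0517 to 0.0634.

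CTSL encodes cathepsin L, a cysteine protease of the lysosome. Its log2 values were 8.03, 8.09, 8.16, 8.24 and 8.28 on treated arrays and 7.50, 7.35, 6.36, 7.19 and 7.41 on control arrays. The treated arrays lay close together and above all controls, with control 3 apart from the other controls. The difference of 1.00 ± 0.19 (SE; 95% interval 0.59 to 1.40) missed the threshold (limma adjusted p = 0.0524). Without control 3 it was smaller, 0.80, and passed (limma adjusted p = 0.00302); across all 23 alternatives CTSL passed in 7, with adjusted p from 0.00302 to 0.167. All 3 CTSL probes, above background on every array, were higher in treated cells, by 1.00, 0.99 and 0.74. CTSV, the closest relative of CTSL and outside the 37, differed by 0.06.

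The other cathepsins did not pass. CTSB, a cysteine protease, differed by 0.14 at its brightest probe and by -0.14 at a second probe, and CTSD, the main aspartic protease, differed by 0.21 (95% interval -0.13 to 0.55). Without control 3 CTSB differed by 0.01 and CTSD by 0.34. Among the sugar-cleaving enzymes, HEXA, a subunit of beta-hexosaminidase, differed by 0.23 (95% interval -0.03 to 0.50) and GUSB, beta-glucuronidase, by 0.14, or 0.03 without control 3. GAA, the acid alpha-glucosidase that degrades glycogen, differed by -0.17, with control 3 at 5.43 above the 4.00 to 4.69 of the other controls, and by 0.04 without that array. NEU1, the lysosomal sialidase, had the highest unadjusted p of this class. Its log2 values were 6.59, 6.62, 6.63, 6.70 and 6.28 on treated arrays and 6.51, 6.63, 6.58, 6.75 and 6.49 on control arrays, which overlapped. LIPA, the acid lipase that frees cholesterol and fatty acids from lipoproteins, differed by -0.12, or -0.04 without control 3. Of 34 further hydrolases and activators none passed, and 1 was lower at an unadjusted p under 0.05 (CTSZ, cathepsin Z, by -0.69).

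**Figure D3:**
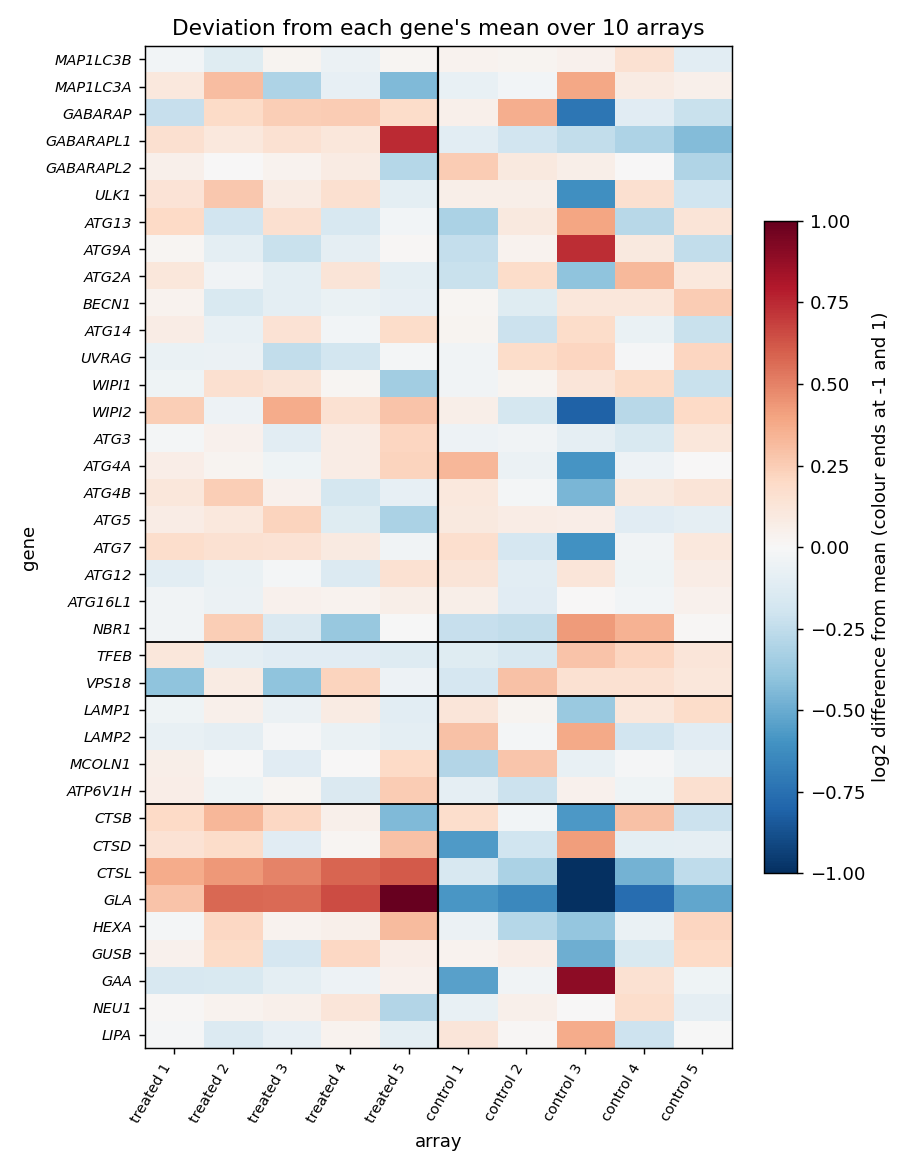
Deviation of each gene's log2 value from its mean over the 10 arrays (colour, blue below and red above, ending at -1 and 1), with the 37 genes as rows by class and treated arrays left of control arrays. GLA, CTSL and, mostly in paler colours, GABARAPL1 are red on all treated and blue on all control arrays. Control 3 holds many of the deepest colours in both directions.

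SDs within a group ran from 0.03 (LAMP2) to 0.56 (GLA) among treated arrays and from 0.07 (ATG16L1) to 0.52 (GAA) among control arrays. Control 3 was the lowest control for 13 of the 37 genes and the highest for 10. Treated 5 was the lowest treated array for 12 genes and the highest for 14. The median over the machinery genes of the deviation from each gene's mean was 0.02 ± 0.03 on treated and 0.01 ± 0.03 on control arrays (SD, n = 5 each). For the hydrolases it was 0.04 to 0.19 on treated arrays and -0.39 to -0.04 on control arrays, with control 3 the lowest. Without GLA and CTSL it was -0.08 to 0.19 on treated arrays and -0.07 to 0.01 on control arrays, so these ranges overlapped, and control 3 was the highest control.

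Promoters of 4 genes are shown: GLA and CTSL were chosen for the largest differences among the 37, and MCOLN1 and GAA because they carry the motif bound by TFEB and its relatives. Promoters of other genes that hold a searched motif are not shown. Each runs from 250 bases before to 50 after the gene's RefSeq start (GRCh38.p14), 5′ to 3′ on the gene's strand. The windows are chrX:101407876-101408175, minus strand, for GLA; chr9:87725869-87726168, plus strand, for CTSL; chr19:7522374-7522673, plus strand, for MCOLN1; and chr17:80101331-80101630, plus strand, for GAA. Capitals mark any of 3 motifs on either strand.
GLA: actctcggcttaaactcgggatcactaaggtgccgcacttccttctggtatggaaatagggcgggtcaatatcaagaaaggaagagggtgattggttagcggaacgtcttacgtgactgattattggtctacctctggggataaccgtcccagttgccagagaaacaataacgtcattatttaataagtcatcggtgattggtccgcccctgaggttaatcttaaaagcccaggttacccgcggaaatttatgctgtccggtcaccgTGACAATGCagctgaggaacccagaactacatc
CTSL: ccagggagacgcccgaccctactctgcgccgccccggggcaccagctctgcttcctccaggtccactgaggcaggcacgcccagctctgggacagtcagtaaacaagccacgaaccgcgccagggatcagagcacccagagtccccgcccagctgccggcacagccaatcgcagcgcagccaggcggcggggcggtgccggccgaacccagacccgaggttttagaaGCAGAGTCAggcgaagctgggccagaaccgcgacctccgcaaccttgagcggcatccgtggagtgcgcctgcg
MCOLN1: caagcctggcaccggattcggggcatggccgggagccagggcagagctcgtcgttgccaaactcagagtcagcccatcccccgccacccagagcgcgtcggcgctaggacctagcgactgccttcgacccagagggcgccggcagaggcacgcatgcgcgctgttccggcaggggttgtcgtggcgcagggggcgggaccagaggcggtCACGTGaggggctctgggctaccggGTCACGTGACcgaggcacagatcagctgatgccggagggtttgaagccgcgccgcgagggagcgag
GAA: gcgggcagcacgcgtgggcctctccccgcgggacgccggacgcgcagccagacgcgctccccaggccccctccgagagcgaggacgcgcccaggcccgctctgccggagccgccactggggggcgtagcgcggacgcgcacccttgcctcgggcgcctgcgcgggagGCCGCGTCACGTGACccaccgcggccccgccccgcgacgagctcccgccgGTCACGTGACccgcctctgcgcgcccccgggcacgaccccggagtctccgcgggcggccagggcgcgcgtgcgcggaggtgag

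The motifs were the core of the CLEAR element bound by TFEB (an E-box with 2 fixed bases on each side, seen in capitals in MCOLN1 and GAA), the E-box itself (CACGTG, counted wherever it occurs) and the core of the antioxidant response element (TGACNNNGC), to which the NRF2 factor binds. RefSeq promoters matched 30 of the 37 genes; the others were MAP1LC3A, UVRAG, VPS18, LAMP2, ATP6V1H, CTSB and HEXA. The CLEAR core was in 2 of the 30 windows (MCOLN1 and GAA), against 0.381% of 27305 promoters of the same length. Neither of these 2 genes passed, with differences of 0.06 and -0.17. The E-box was in 7 of the 30, including 3 of the 7 matched hydrolases and 2 of the 20 matched machinery genes, against 7.43% of all promoters. LAMP1 held 6 copies. The antioxidant element core was in 6 of the 30 (CTSD, CTSL, GAA, GLA, LAMP1 and MAP1LC3B), against 13.6% of all promoters. Among matched genes it was in 4 of the 7 hydrolases and 1 of the 20 machinery genes. It began at position 18 in GLA and at position -23 in CTSL, counted from the gene's start as 1 with no position 0. Of those 6 genes, the 4 besides GLA and CTSL had differences of -0.17 to 0.21. SQSTM1, which passed outside the 37, held none of these motifs in its window. A match is a description of the letters in the window and does not show that a factor binds there. Bases outside the windows were not searched, so the lack of a match does not show that a gene has no such motif.

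**Figure D4:**
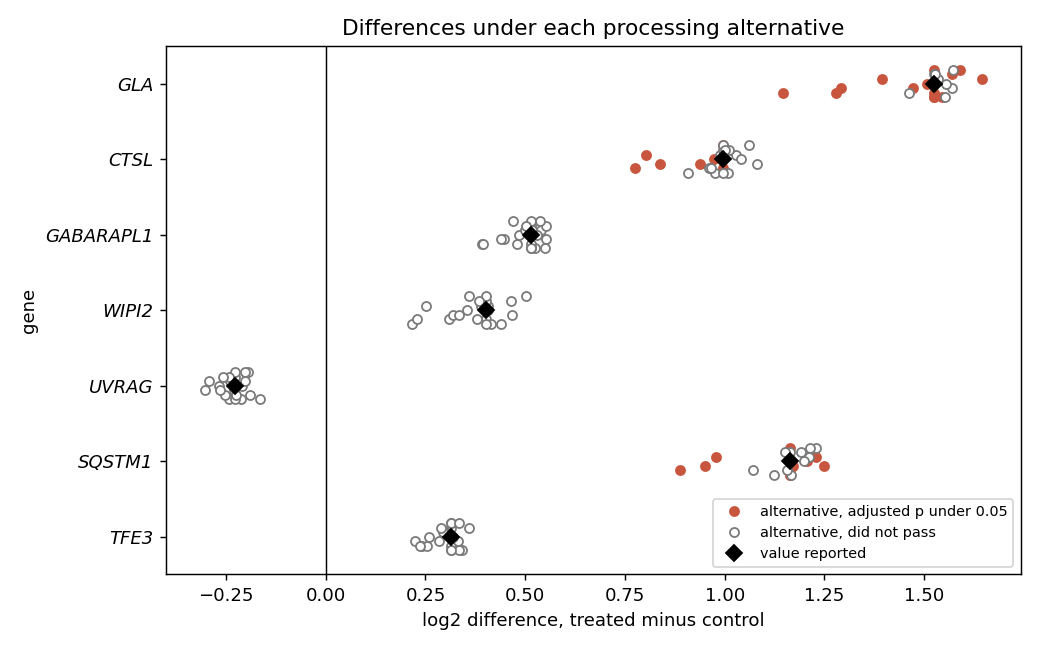
Log2 difference, treated minus control (horizontal axis), of 7 genes (vertical axis) as reported (black diamonds) and under 23 alternatives, filled red where limma's adjusted p was under 0.05 and open where it was not. Each gene keeps its sign throughout; GLA passed in 15, SQSTM1 in 12 and CTSL in 7 of the 23, and the other 4 genes in none.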

How the data were processed

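Arrays were grouped, and replicate numbers taken, from the sample titles. Values for 48803 probes came from the table the authors deposited. What the authors did to make these deposited log10 values is not given in the sources at hand; the base was read from the highest value per array, 3.65 to 3.79, and sizes of differences rest on it. A second table has 10 columns that match no sample and was not used. Each value was made linear, raised by an offset of 3, put on the log2 scale and quantile normalized between arrays. Folds are on that scale. Probes with a mean above the 25th percentile (1.59) were kept (44606), named through the platform annotation with symbols updated by Entrez identifier, and the brightest probe stood for each gene. Above background means a log10 value over 0.2. Limma 3.58.1 in R 4.3.3 (lmFit, eBayes, two-sided, 10 arrays, no covariate) tested 17752 genes with Benjamini-Hochberg adjustment. Its procedure was tested on simulated data with independent normal noise, which hold no outlying array and no shared cultures. The number of arrays limits precision.

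All 37 genes are reported by role. Values per array are given for genes with an unadjusted p under 0.05, for the gene with the highest p of each class, and for SQSTM1 and other pathway genes under 0.01 whose groups did not overlap. MAP1LC3B was added after its values were seen. The genes, lists and rules were chosen with earlier results of these data known. Alternatives covered offset, normalization, filter, probe rule, variance model, array weights, replicate block and each array left out. Figures were drawn with matplotlib 3.10.9.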

Additional observations from a re-analysis of the deposited data

Results flagged for a closer look

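Within each group of 5 arrays, the highest and lowest values were set against the rest by Dixon's gap-to-range ratio, whose 95% limit is 0.71. In all, 12 of 84 sets passed that limit (14.3%), where chance would give about 5% if the sets were independent, which they are not.

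On treated 5, GLA was at 9.11 (nearest treated array 8.03) and GABARAPL1 at 7.30 (nearest 6.71), both the highest of their group, while GABARAPL2 at 8.58 and NEU1 at 6.28 were the lowest. On control 3 the lowest values of the group were 6.36 for CTSL (nearest control 7.19), 8.58 for SQSTM1 (nearest 9.47), 6.92 for ATG4B and 9.11 for LAMP1, and the median deviation of the hydrolases was -0.39 (nearest -0.10). On treated 1, GABARAP was lowest at 4.77 and TFEB highest at 2.34. On treated 2 the median deviation of the hydrolases was highest, at 0.19.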

How the results depend on the processing

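GLA, CTSL, GABARAPL1, WIPI2 and UVRAG kept their direction in all 23 alternatives, 2 of them chosen after seeing the data (arrays numbered 5 as a batch, and control 3 with treated 5 left out), as did 20 of the 37 genes in all; TFEB kept it in the 22 alternatives that held it. None of the 37 besides GLA and CTSL passed in any alternative. The number of the 37 that passed was 2 (GLA and CTSL) with median scaling, no further normalization, a filter of above background on 5 arrays, trended and robust variance, array weights, or control 3 and treated 5 left out. It was 0 with an offset of 10, no filter, or the deposited values, and 0 to 2 with 1 array left out. The cause was not tested. Among the other pathway genes it was 0 with offsets of 1 and 10, no filter and the deposited values, and 0 to 1 with 1 array left out. Over all genes 53 passed, against 28 on the deposited values, 87 with array weights and 79 with arrays numbered 5 as a batch. With a replicate block 1 of the 37 passed (GLA, limma adjusted p = 0.0199), 45 of all genes passed and CTSL stood at 0.0879; deviations of same-numbered arrays correlated at -0.09 to 0.25, and the treated array was most like the control of its own number for 3 of 5 numbers. The median difference of the machinery was -0.062 with median scaling, which put the median of all genes at -0.031, and -0.027 to 0.035 with 1 array left out. That of the lysosomal membrane genes was -0.037 with median scaling, -0.034 with array weights and -0.022 with control 3 and treated 5 left out.

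The other 16 genes, none of which passed, took either sign. With array weights the difference was 0.102 for ATG13, -0.097 for ATG2A, 0.009 for WIPI1, -0.008 for ATG4B, 0.054 for ATG5 and -0.015 for MCOLN1. On the deposited values it was 0.102 for ATG13, -0.044 for ATG2A and -0.019 for ATG16L1. With no further normalization it was 0.019 for ATG13, -0.042 for ATG2A and -0.018 for ATG16L1, and with an offset of 1 it was 0.006 for ATG13. With median scaling it was -0.078 for ATG2A, -0.010 for ATG4B, -0.054 for ATG16L1, -0.031 for MCOLN1 and -0.010 for ATP6V1H, and with the mean over probes -0.075 for ATG16L1 and -0.001 for CTSB. Without control 3 and treated 5 it was 0.000 for MAP1LC3A, 0.030 for GABARAPL2, 0.099 for ATG13, -0.070 for ATG2A, 0.075 for WIPI1, -0.029 for ATG4A, -0.024 for ATG4B, 0.079 for ATG5, 0.003 for GAA and 0.041 for NEU1. With 1 array left out the ranges were -0.086 to 0.094 for ATG13, -0.010 to 0.034 for ATG16L1, -0.096 to 0.083 for ATG2A, -0.052 to 0.108 for ATG4B, -0.070 to 0.065 for ATG5, -0.235 to 0.012 for ATG9A, 0.000 to 0.103 for ATP6V1H, -0.322 to 0.035 for GAA, -0.126 to 0.021 for GABARAPL2, -0.125 to 0.013 for LAMP1, -0.005 to 0.138 for MCOLN1, -0.060 to 0.043 for NEU1 and -0.094 to 0.049 for WIPI1. Adding the background back to the values was not run, since no usable column gives that background. Signal over background limits the reading of TFEB and ATG13, which were not above background on all arrays. MAP1LC3A was above background on all arrays but dim, with means of 2.57 in treated and 2.73 in control cells. Its difference was -0.07 with an offset of 10 and -0.31 on the deposited values. NBR1 was dim as well, with means of 2.89 in treated and 3.01 in control cells.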
